A study of Homo sapiens with 2 samples.

Results

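The Ikaros family of transcription factor genes was examined in a list of accessible chromatin regions from GM12878, a human lymphoblastoid line of B cells immortalised with Epstein-Barr virus. Accessible chromatin was assayed by ATAC-seq, in which a transposase inserts sequencing adapters into open DNA. The GM12878 group held 2 untreated cultures of 50000 cells each, and the deposited result is 1 list for both, so nothing could be compared between cultures. A region counted as a member when its midpoint lay within 50 kb of the hg19 span of IKZF1, IKZF2, IKZF3 or IKZF4. This gave 31 of the 23612 listed regions, with 15 at IKZF1, 10 at IKZF2, 3 at IKZF3 and 3 at IKZF4. The rule used gene positions and no measured value. Positions of regions are in hg19, and only the promoter sequences below are in GRCh38.p14. The depth of the libraries is unknown, so a position without a region is only not listed and is not shown to be closed. The list pairs no region with a gene, so the labelled cell type was not checked against marker genes.

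Ikaros proteins bind DNA through zinc fingers near the N terminus and pair with each other through zinc fingers at the C terminus. They recruit chromatin remodelling and deacetylase complexes, and act as activators or repressors depending on the gene. IKZF1 encodes Ikaros, the founding member, which lymphocytes need for their development. IKZF3 encodes Aiolos, which is known for its part in B cell maturation. IKZF2 encodes Helios and IKZF4 encodes Eos, both known mainly from T cells and in particular from regulatory T cells.

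IKZF1 and IKZF2 carried a listed region over the gene start, whereas IKZF3 and IKZF4 carried none within 1 kb of it. Promoter sequence is shown for the members found in the RefSeq promoter table of build GRCh38.p14, which matched 3 of the 4 genes. IKZF3 had no entry. Each sequence runs from 250 bases before to 50 bases after the outermost start of the table. These starts need not be those of the hg19 spans, and no position was converted between builds. Whether a listed region covers the printed bases is therefore not shown, and the sequences are given to compare the base composition of the family's promoters. Capitals mark the letters GGGAA, the core bound by Ikaros proteins, or its reverse complement TTCCC, with no overlap between matches.
IKZF1, chr7:50304466-50304765, plus strand: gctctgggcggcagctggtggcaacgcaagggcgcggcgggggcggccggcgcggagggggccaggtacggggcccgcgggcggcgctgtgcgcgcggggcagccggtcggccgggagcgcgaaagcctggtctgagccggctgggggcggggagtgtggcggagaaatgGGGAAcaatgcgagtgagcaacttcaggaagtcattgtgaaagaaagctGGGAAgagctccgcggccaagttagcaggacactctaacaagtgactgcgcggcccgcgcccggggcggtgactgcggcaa
IKZF2, chr2:213152407-213152706, minus strand: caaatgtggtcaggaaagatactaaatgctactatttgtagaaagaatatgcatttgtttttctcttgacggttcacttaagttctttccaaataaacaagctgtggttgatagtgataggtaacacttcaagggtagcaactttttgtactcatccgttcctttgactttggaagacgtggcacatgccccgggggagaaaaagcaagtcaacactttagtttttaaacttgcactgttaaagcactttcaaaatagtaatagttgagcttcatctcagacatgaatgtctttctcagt
IKZF4, chr12:56007254-56007553, plus strand: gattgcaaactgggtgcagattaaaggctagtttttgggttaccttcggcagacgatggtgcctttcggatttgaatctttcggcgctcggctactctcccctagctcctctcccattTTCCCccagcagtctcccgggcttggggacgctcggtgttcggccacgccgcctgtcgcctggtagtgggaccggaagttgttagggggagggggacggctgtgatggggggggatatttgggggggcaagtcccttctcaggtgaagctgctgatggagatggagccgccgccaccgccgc

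The 3 promoters at the outermost starts differed in base composition. The IKZF1 promoter was 71.0% G and C, higher than 81.9% of the 35116 promoters of the table, and held 35 CpG dinucleotides. Its observed over expected CpG ratio was 1.00, against a median of 0.579 over all promoters. The IKZF2 promoter was 37.3% G and C, with 4 CpG and a ratio of 0.384. The IKZF4 promoter was 61.0% G and C, with 19 CpG and a ratio of 0.694. The letters GGGAA, on either strand, occurred at 2 places in the IKZF1 promoter, at 1 in the IKZF4 promoter and at 0 in the IKZF2 promoter at these outermost starts. Of all promoters of the table, 65.0% held at least 1 match. The table gives IKZF1 and IKZF4 3 starts each and IKZF2 2 starts. The other IKZF1 starts lay 3984 and 14332 bp downstream of the outermost, that of IKZF2 2019 bp, and those of IKZF4 13401 and 13539 bp. At the other IKZF2 start the promoter was 48.7% G and C with a CpG ratio of 0.414. At the other IKZF1 starts it was 47.0% and 35.3%, with CpG ratios of 0.184 and 0. At the other IKZF4 starts it was 62.3% and 60.0%, with 6 and 3 CpG and ratios of 0.208 and 0.113, below both IKZF2 starts. The other starts held 2 and 0 matches to GGGAA at IKZF1, 0 at IKZF2 and 3 each at IKZF4, a number that 10.3% of all promoters reach. The order of the 3 genes in G and C share, in CpG ratio and in matches thus depended on which start was taken.

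IKZF1 was the densest of the 4 loci. Its interval of 228 kb held 15 regions, or 6.57 per 100 kb, against 0.842 per 100 kb over the rest of chromosome 7, a ratio of 7.80. The IKZF2 interval of 252 kb held 10 regions, or 3.97 per 100 kb, against 0.871 over the rest of chromosome 2, a ratio of 4.56. The IKZF4 interval of 118 kb held 3 regions, or 2.55 per 100 kb, against 0.907 over the rest of chromosome 12, a ratio of 2.81. The IKZF3 interval of 206 kb also held 3 regions, or 1.45 per 100 kb, against 0.619 over the rest of chromosome 17, a ratio of 2.35. Aiolos, the other family member known for its part in B cells, thus had the lowest density of the 4. This order depended on the flank, since with flanks of 100 kb IKZF4 (5.98 per 100 kb) passed IKZF1 (4.87), and over the gene span alone IKZF4 (0) lay below IKZF3 (0.939). The lengths of the chromosomes include unsequenced stretches, which lowers their densities.

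**Figure D1:**
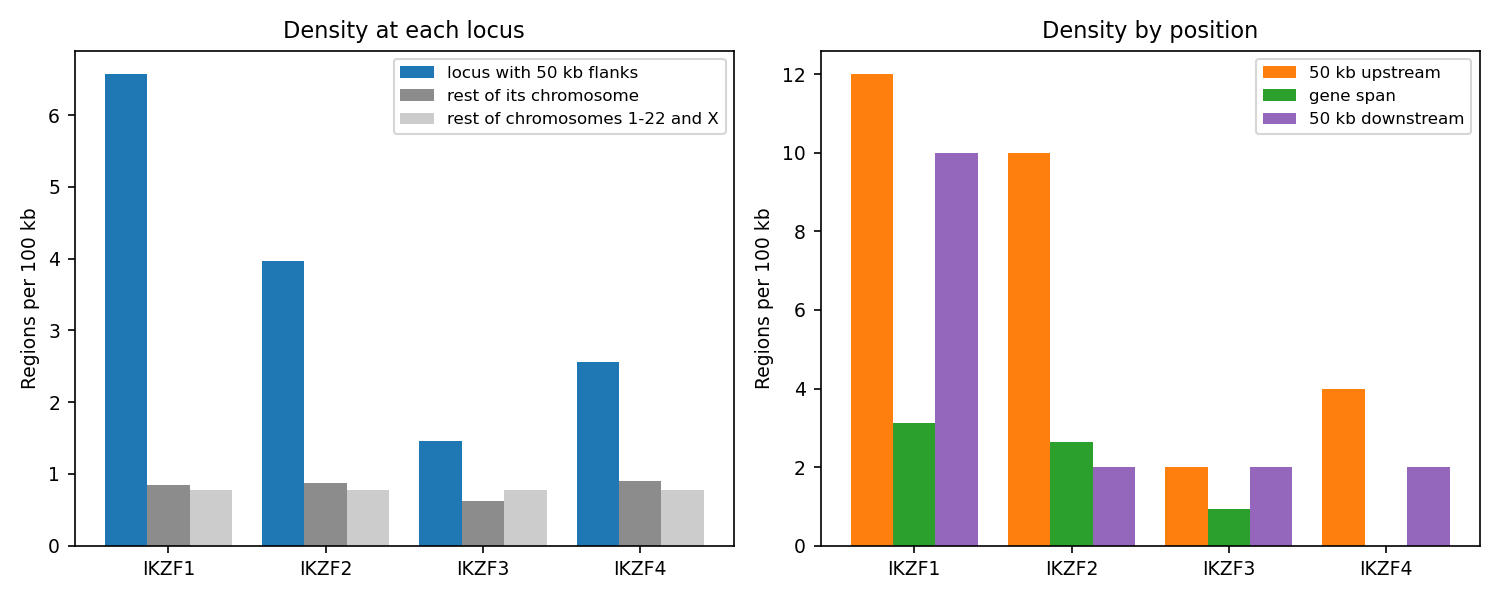
Regions per 100 kb (y axis). Left: each locus with its 50 kb flanks, the rest of its chromosome and the rest of chromosomes 1 to 22 and X. Right: the 50 kb upstream of the gene start, the gene span and the 50 kb downstream of the gene end. The IKZF1 locus reaches 6.57 per 100 kb and the IKZF3 locus 1.45, and no gene span is denser than its upstream flank.

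To place these counts within the list, chromosomes 1 to 22 and X were laid out in tiles of the length of each interval. The 15 regions at IKZF1 were reached or passed in 10 of 13279 tiles (0.0753%), where the median tile held 1 region and the fullest 18. The 10 regions at IKZF2 were reached or passed in 178 of 12042 tiles (1.48%). For IKZF4, 3045 of 25823 tiles (11.8%) held 3 or more. For IKZF3 the share was 3581 of 14694 tiles (24.4%), so counts as high as that at IKZF3 were common in the list. The IKZF1 share was 0.121% when the tiles were shifted along the chromosomes. Among regions of the highest score only, it was 0.610%, close to 0.814% for IKZF2, so the wide gap between these 2 loci rested on regions below the highest score. The shares describe the list and are no test, since tiles differ in gene content and neighbouring tiles are not independent.

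**Figure D2:**
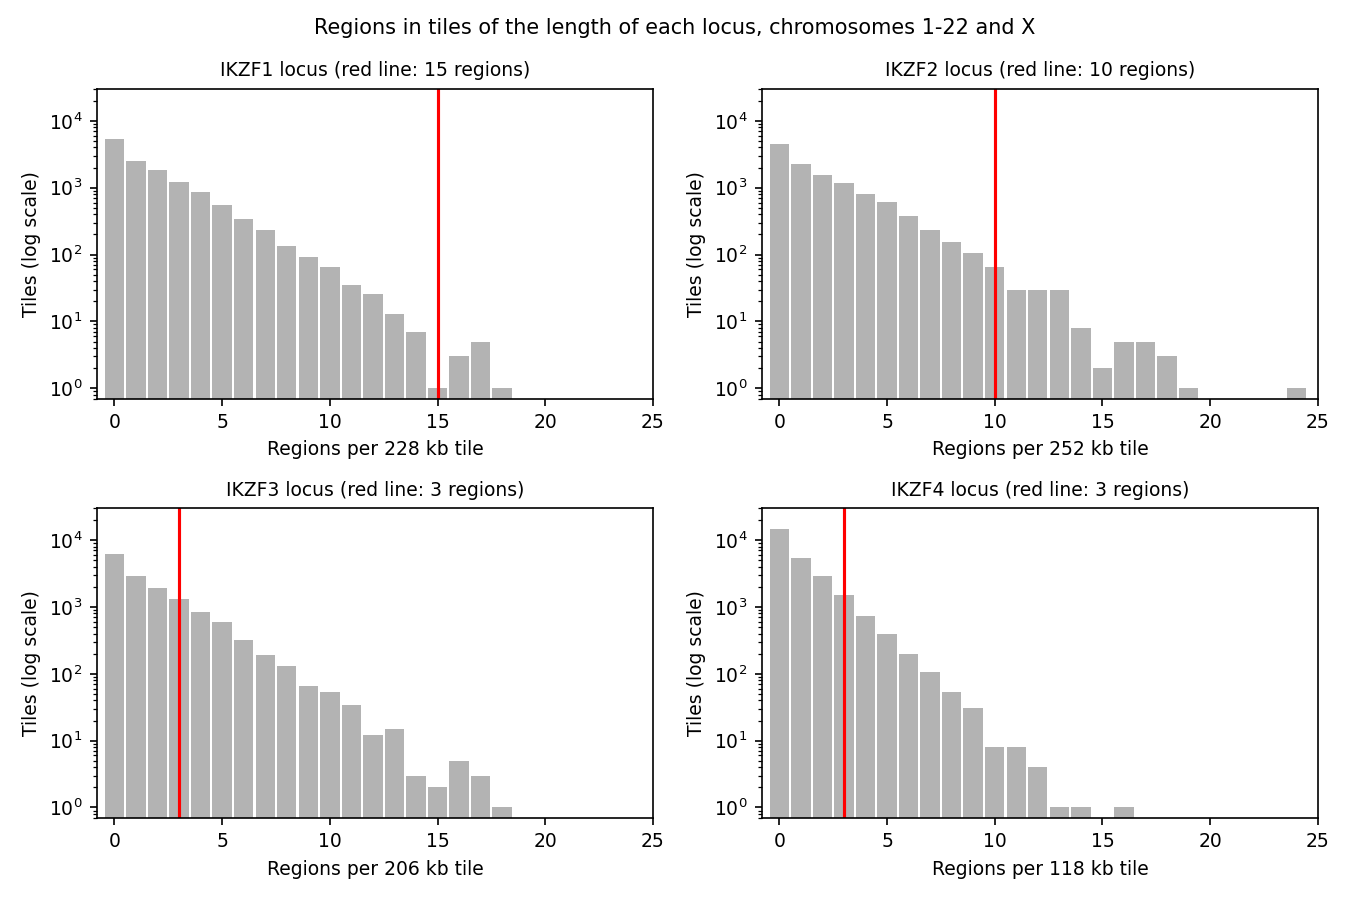
Number of tiles (y axis, log scale) by number of regions per tile (x axis), for tiles as long as each locus. Red lines mark the locus itself. IKZF1 stands at 15 regions, near the end of the distribution, and IKZF3 at 3, inside it.

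The loci also differed in how far they stood out from their own chromosome band. Band 7p12.2 held 27 regions, of which 13 (48.1%) belonged to the IKZF1 locus, which takes up 13.7% of the band. The last 2 IKZF1 regions lay beyond the band's end. Band 2q34, which stains darkest, held 53 regions, of which 10 (18.9%) lay at IKZF2, within 4.00% of its length. Band 17q12 held 28 regions, of which 3 (10.7%) lay at IKZF3, within 3.28% of its length. Band 12q13.2 held 32 regions, of which 3 (9.38%) lay at IKZF4, within 6.91% of its length. With the members counted in, the whole bands held 1.8 regions per 100 kb for IKZF1, 0.841 for IKZF2, 0.444 for IKZF3 and 1.88 for IKZF4.

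At IKZF1 the gene start lay inside a region of 1171 bp at chr7:50343727-50344897. The region reached 651 bp upstream of the start and 520 bp into the gene, and was wider than 79.4% of the list. Its score was 1000. This score comes from the authors, 1 whole number for each region. Its scale is not named in the labels, and 1000 is the highest value in the list. The next region downstream began 22.7 kb into the gene, and the next upstream ended 10.6 kb before the start. The start region was therefore the only one listed between these points.

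The IKZF1 flanks were denser in regions than the gene itself. The 50 kb upstream held 6 regions (12 per 100 kb, the start region included, since its midpoint lies 0.0665 kb upstream), the 128 kb gene span 4 (3.11 per 100 kb) and the 50 kb downstream 5 (10 per 100 kb). The farthest upstream regions formed a run of 3 over 4.30 kb at chr7:50306383-50310684, of which the outermost scored 1000 and the others 934 and 727. The widest region of the locus, 1578 bp with a score of 1000, lay 22.5 kb upstream of the start at chr7:50321109-50322686. It was wider than 91.7% of the list. A narrower region of 524 bp with a score of 715 lay 10.8 kb upstream.

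Within the IKZF1 gene, a pair of regions scored 1000 and lay 74.0 and 75.7 kb from the start, at chr7:50417961-50418795 and chr7:50419810-50420442. They stood apart from the rest of the gene, since 50.5 kb without a listed region lay on their 5′ side. The other regions of the gene, 22.9 and 120.6 kb from the start, scored 577 and 582, the lowest scores among the 31 members. Exons and introns of hg19 were not annotated here, so these positions are given only as distances from the start.

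Downstream of IKZF1, 3 regions lay together over 8.80 kb at chr7:50477370-50486171, the first of them 4.57 kb past the gene end. They scored 1000, 1000 and 979. The remaining regions lay 41.4 and 44.5 kb past the gene end and scored 957 and 1000. The next protein-coding genes on this side, by their order in GRCh38.p14, are FIGNL1, an ATPase of homologous recombination, and DDC, the decarboxylase that makes dopamine and serotonin. Whether the outer regions belong to IKZF1 or to these neighbours cannot be told apart from the list.

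**Figure D3:**
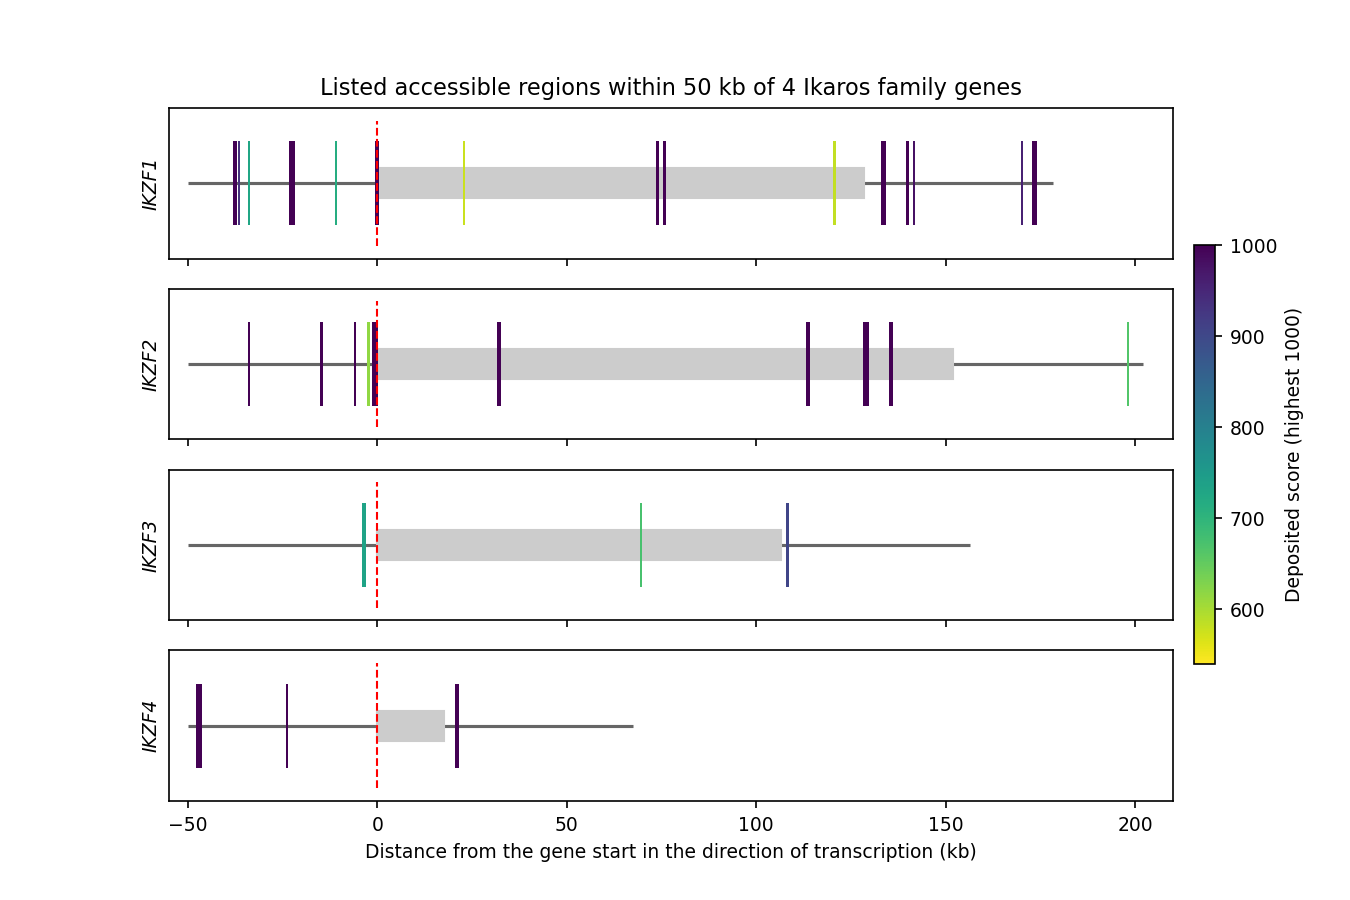
Listed regions at each locus by distance from the gene start (x axis, kb, in the direction of transcription). Grey boxes are gene spans, dark lines the 50 kb flanks, coloured bars the regions, drawn to scale and coloured by deposited score, and red dashed lines the gene starts. IKZF1 and IKZF2 have a region with a score of 1000 on the red line, and IKZF3 and IKZF4 have none.

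The IKZF2 start lay inside a region of 1587 bp at chr2:214016012-214017598, wider than 91.8% of the list, with a score of 1000. Most of it lay upstream, with 1265 bp before the start and 322 bp in the gene. It was the first of 4 regions that ran upstream over 15.5 kb, to chr2:214031488, with scores of 1000, 616, 1000 and 1000. This was the fullest cluster of members at any of the 4 loci, when members at most 10 kb apart were joined. Regions beyond the 50 kb limit were not joined, so a cluster could be cut short there. A further region with a score of 1000 lay 33.8 kb upstream, so the 50 kb upstream held 5 regions (10 per 100 kb).

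The gene span of IKZF2, 152 kb long, held 4 regions (2.63 per 100 kb), and all 4 scored 1000. They lay 32.2, 113.7, 129.0 and 135.7 kb from the start. The third, at chr2:213886545-213888195, was the widest of all 31 members at 1651 bp, wider than 92.9% of the list. Between the first and the second, 80.6 kb held no listed region, the longest such stretch between members at any of the 4 loci. The 50 kb downstream held 1 region, with a score of 665, 45.9 kb past the gene end. The protein-coding neighbours of IKZF2 in GRCh38.p14 are SPAG16 upstream and ERBB4 downstream. SPAG16 encodes a protein of the sperm tail and ERBB4 a receptor tyrosine kinase.

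At IKZF3 the nearest region lay 2.83 kb upstream of the start, at chr17:38023269-38024350, 1082 bp wide with a score of 733. The next gene upstream in GRCh38.p14 is ZPBP2, which encodes a zona pellucida-binding protein of sperm, so to which gene this region belongs cannot be told apart. Around the IKZF3 start, 72.2 kb lay without a listed region. The only region in the gene lay 69.6 kb from the start at chr17:37950560-37951041, was 482 bp wide and scored 673. The last lay 1.29 kb past the gene end at chr17:37911806-37912679, was 874 bp wide and scored 906. None of the 3 reached the highest score.

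At IKZF4 no region lay in the gene, whose hg19 span is 17.5 kb long, and 44.1 kb around its start held no listed region. The nearest region lay 3.04 kb past the gene end at chr12:56435257-56436155 and was 899 bp wide. Upstream, regions of 462 and 1468 bp lay 23.7 and 47.0 kb from the start, at chr12:56390725-56391186 and chr12:56366991-56368458. All 3 scored 1000. The gene lies among close neighbours, which in GRCh38.p14 are SUOX, RAB5B and CDK2 upstream and RPS26, ERBB3 and PA2G4 downstream. SUOX encodes sulfite oxidase, RAB5B a GTPase of early endosomes and RPS26 a ribosomal protein. The 3 regions cannot be told apart from regions of these neighbours.

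Across the 31 members, 19 (61.3%) had the highest score, against 60.1% of the whole list, so the members as a set did not stand apart in score. The loci did differ among themselves, with the highest score in 8 of 15 regions at IKZF1, 8 of 10 at IKZF2, 0 of 3 at IKZF3 and 3 of 3 at IKZF4. Counts of 3 give no firm share. The 12 members below the highest score ran from 577 to 979, and the lowest score of the list was 541.

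The members had a median width of 835 bp (range 447 to 1651), against 756 bp (range 200 to 28902) over the list, and 17 of the 31 were wider than the list's median. Members with the highest score had a median of 984 bp and the others 589 bp, against 953 and 556 bp in the list, so members followed the relation of width and score in the list. The median width was 740 bp at IKZF1, 891.5 bp at IKZF2, 874 bp at IKZF3 and 899 bp at IKZF4. Regions covered 5.40% of the IKZF1 interval, 3.81% of the IKZF2 interval, 1.18% of the IKZF3 interval and 2.41% of the IKZF4 interval, against 0.682% of chromosomes 1 to 22 and X.

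**Figure D4:**
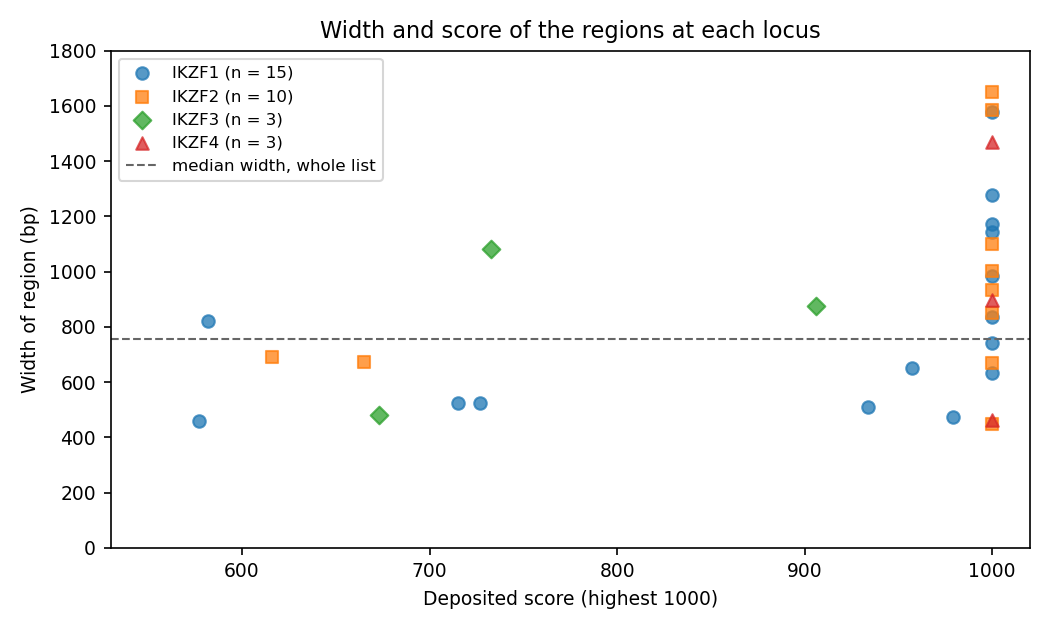
Width of each member (y axis, bp) by deposited score (x axis), with the locus shown by marker and the median width of the whole list, 756 bp, as a dashed line. Members wider than 1100 bp all have the highest score of 1000, and the 3 IKZF3 regions lie at 673, 733 and 906.

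Spacing separated the loci as well. Gaps between neighbouring members had a median of 10.2 kb at IKZF1 and 14.0 kb at IKZF2, against 43.6 kb between neighbours over the whole list. The 2 measures are unlike, since gaps between members cannot exceed the interval, whereas those of the list had no such limit. At IKZF3 the 2 gaps were 37.9 and 72.2 kb, and at IKZF4 they were 22.3 and 44.1 kb. When regions at most 10 kb apart were joined, 12 of the 15 IKZF1 regions fell into 5 clusters of 2 or more, and 6 of the 10 IKZF2 regions into 2 clusters. Only members were joined, and no member at IKZF3 or IKZF4 had another member that near. At IKZF4 this rested on the 50 kb limit. The outermost upstream member began at chr12:56366991, and a region outside the limit ended at chr12:56361072, within 10 kb of it. How many regions of the whole list had a neighbour within 10 kb was not counted, so these counts are not shown to differ from the list. Region numbers in the list ran without a skip across each of the 4 intervals, so no numbered region is missing from them. A region removed before the numbering would leave no skip, so the intervals are not shown to be complete.

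The distance limit of 50 kb passed between these regions. At IKZF1 the outermost members lay 37.5 kb upstream and 45.1 kb downstream of the span, by midpoint, and the next regions 156.1 and 63.0 kb away. At IKZF2 the outermost members lay 33.8 and 46.2 kb away and the next 76.0 and 268.5 kb. At IKZF3 they lay 3.37 and 1.73 kb away, with the next at 63.5 and 296.1 kb. At IKZF4 they lay 46.97 and 3.49 kb away and the next at 54.0 and 66.2 kb. The IKZF1 regions upstream were thus followed by a long empty stretch, whereas those at IKZF4 continued just outside the limit.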

How the data were processed

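ATAC-seq libraries came from 2 cultures of GM12878, 1 group per the labels. For both cultures together the authors deposited a single header-less list in hg19 with a score per region, whose scale is not stated, and no counts. Depth is therefore unknown, and no interval that needs it is given. The name of the list points to a cut on reproducibility and to filters on mappability, mitochondrial sequence and excluded stretches of the genome. A region removed by such steps would also be unlisted. Per the submitters' processing notes, the tools were MACS2 2.1.0, BWA 0.7.13, bedtools 2.24.0, SAMtools 0.1.19, Trim Galore 0.3.3, CASAVA 1.8.4 and Picard 1.92, with no roles named. A shift of reads for the transposase was not given in the sources used here.

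Members were regions with their midpoint within 50 kb of 4 hg19 gene spans. Named at each locus were the region nearest the start, the widest region and the fullest cluster, and the other members were added to account for all. Genes and analyses were chosen with earlier results of these data known. Chromosome lengths and bands came from circlize 0.4.16 in R 4.3.3, and gene order and promoters from RefSeq tables of GRCh38.p14. Counts used Python 3.11.15 and numpy 2.4.6, were tested on simulated data, and were plotted with matplotlib 3.10.9. Nothing was tested between groups. The planned comparison of proteins was not run.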

Additional observations from a re-analysis of the deposited data

How the results depend on the processing

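Of 41 alternatives over 12 results, 28 stayed within 1.5 times the reported value and 13 moved further. The 4 that left out tiles in centromeric, variable or stalk bands were added after seeing the data and stayed within that limit. Counted over the gene span only, the density fell to 3.11 regions per 100 kb at IKZF1, 2.63 at IKZF2, 0.939 at IKZF3 and 0 at IKZF4. A flank of 100 kb raised it to 5.98 at IKZF4, above the other loci. With regions of the highest score only, it was 3.50 at IKZF1 and 0 at IKZF3, and 9 members instead of 18 fell into clusters. The share of tiles with at least as many regions was then 0.610% for IKZF1, 0.814% for IKZF2, 100% for IKZF3, where 0 regions were left, and 5.19% for IKZF4. Shifting the tiles along the chromosomes gave 0.121% for IKZF1. The gene starts with a region stayed at 2, or 3 when an edge within 5 kb sufficed, which takes in IKZF3.

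The list has no values per culture, so no replicate was left out. No paired analysis was possible because all samples form 1 group. Depth is unknown and the list appears to be filtered, and both limit what an unlisted position can show.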

Other observations

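Between 50 and 100 kb from the gene spans, regions were more frequent than closer in at IKZF4 and less frequent at IKZF1. IKZF4 had 10 regions there, 4 upstream and 6 downstream, of which 7 had the highest score, against 3 within 50 kb. IKZF1 had 1 there, against 15 within 50 kb. IKZF2 had 4, all upstream and between 76.0 and 92.0 kb away, of which 2 had the highest score. IKZF3 had 2, both upstream, at 63.5 and 88.9 kb, of which 1 had the highest score. On the other side of IKZF3, beyond its downstream member, no region was listed until 296.1 kb from the gene.

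In the same promoter table, IKZF5, which encodes Pegasus, the remaining family member, had 2 starts with 67.7% and 64.3% G and C. Its regions were not analysed here, since the hg19 spans at hand do not include it.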
